A study of Homo sapiens with 28 samples.

Results

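The smooth muscle contractile genes described here are 8 protein-coding genes, TAGLN, ACTA2, CNN1, MYL9, MYLK, TPM1, TPM2 and CALD1, chosen by name from the 60483 Ensembl gene rows of a count table. The choice was made with earlier results of these data known, so counts of members beside the share of all genes are descriptions. They were followed in 28 RNA libraries of the human lung adenocarcinoma lines A549 (13 libraries) and H1944 (15 libraries), both carrying MGT#1-mVenus, a reporter of mesenchymal state that makes the fluorescent protein mVenus. For 11 days cells received either 5 µM GSK126, which blocks the histone methyltransferase EZH2, or 5 ng/ml TGF-β1, a cytokine known to drive epithelial-mesenchymal transition. They were then sorted by mVenus brightness into high and low gates. Naive cells of each line were neither treated nor sorted. Each line thus had 5 groups: naive, GSK126 low, GSK126 high, TGF-β1 low and TGF-β1 high. Every group held 3 libraries, except that A549 had 2 of the GSK126 high gate (A and B) and 2 of the TGF-β1 low gate (A and C). Both lines are single cancer cell lines grown in culture, and nothing in the labels says that libraries of a group came from separate cultures, so p-values measure the spread between these libraries, which may be technical. Sorting and treatment came together in every treated group, so against naive cells their effects cannot be told apart.

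In smooth muscle, actin filaments carry tropomyosin, calponin and caldesmon, and slide over myosin whose regulatory light chain must be phosphorylated for contraction. Serum response factor, SRF, binds CArG boxes near many of these genes and acts with the cofactors myocardin and MRTF. The same genes are known in epithelial cells and fibroblasts as part of the contractile program that TGF-β induces in myofibroblasts.

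All 8 genes rose or fell past the test in H1944 under both agents: 7 rose and MYLK, the gene of myosin light chain kinase, fell, where 40.2% (GSK126) and 63.7% (TGF-β1) of all genes tested passed. CNN1, among those that rose, was kept by the low-count filter through its H1944 TGF-β1 libraries, where it was high. Its GSK126 call held under 18 of 24 alternative settings of the fit. In A549 under TGF-β1, TAGLN, TPM1, CALD1 and ACTA2 rose and MYLK fell, beside 19.0% of all genes that passed. In A549 under GSK126 only TPM1 passed, beside 6.77% of all genes. Between the gates of H1944 under GSK126, TAGLN, ACTA2, MYL9 and TPM2 were higher in the high reporter gate, beside 6.93% of all genes that passed. No member passed between the gates of H1944 under TGF-β1 or of A549 under either agent. Of all genes 0.0587% passed between those H1944 gates and 0% between the A549 gates.

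RefSeq promoter windows of the 250 bases before a start site (GRCh38.p14) were matched for 6 of the 8 genes, with 11 windows in all; TAGLN and MYL9 were not matched. CArG boxes, allowing at most 1 C or G among the middle A and T positions on either strand, were found in 3 windows of 3 genes, beside 7.04% of all 35116 windows in the table. Those windows are shown because these genes went opposite ways, ACTA2 and CALD1 up and MYLK down in H1944. Capitals mark the boxes, and each run reads toward the start site.

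ACTA2, chr10:88952774-88953023, minus strand: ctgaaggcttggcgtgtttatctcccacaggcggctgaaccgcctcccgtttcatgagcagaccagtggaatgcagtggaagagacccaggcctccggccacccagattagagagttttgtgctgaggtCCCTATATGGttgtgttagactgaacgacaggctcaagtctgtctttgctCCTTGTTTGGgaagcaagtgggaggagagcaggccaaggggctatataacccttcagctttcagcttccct
CALD1, chr7:134711249-134711498, plus strand: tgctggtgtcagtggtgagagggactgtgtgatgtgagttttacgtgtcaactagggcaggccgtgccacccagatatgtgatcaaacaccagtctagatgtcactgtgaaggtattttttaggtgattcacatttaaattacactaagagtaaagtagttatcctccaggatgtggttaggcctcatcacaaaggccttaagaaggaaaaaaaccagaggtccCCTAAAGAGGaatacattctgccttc
MYLK, chr3:123620549-123620798, minus strand: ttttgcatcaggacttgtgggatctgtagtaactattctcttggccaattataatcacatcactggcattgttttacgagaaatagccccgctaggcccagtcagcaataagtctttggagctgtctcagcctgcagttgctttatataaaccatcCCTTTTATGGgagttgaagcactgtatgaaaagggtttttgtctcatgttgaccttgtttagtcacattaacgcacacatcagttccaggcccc

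The ACTA2 boxes began 121 and 71 bases before the start, the CALD1 box 26 bases before it and the MYLK box 94 bases before it. Only the MYLK box held A and T alone in its middle, as did a box in 1.16% of all windows. The motif CAGAC, which SMAD proteins bind, was found on either strand in 7 of the 11 windows, beside 38.0% of all windows, and overlapped no CArG box in the windows shown. The ACTA2 and MYLK starts lie inside the annotated genes, the MYLK start close to the gene's 3′ end, and the CALD1 start lies upstream of the GENCODE 29 gene. Gene counts do not say which start was used, so a box here is a description of the letters and not of a working site.

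Total counts ran from 2013449 to 9550143 per library in A549 and from 1660148 to 13280592 in H1944, and levels are given as CPM, the count scaled to that total. CNN1 was too low for the filter in A549, which left 7 of the 8 members tested there and 8 in H1944. In H1944 it was kept through the TGF-β1 libraries (15 to 32 counts each), since naive and GSK126 libraries held 0 to 5 counts. The same TGF-β1 libraries kept it in the fit of both lines. Reads in 374 olfactory receptor genes, which are normally silent outside the olfactory epithelium, served as a measure of background that was chosen after the data were seen. They summed to 305 CPM in A549 TGF-β1 high library B and 195 CPM in A549 naive library A, to at most 121 CPM in the other A549 libraries and to at most 73.2 CPM in H1944. In bulk RNA, fewer cells that express a gene and less of its RNA per cell cannot be told apart. Where libraries of groups are said not to overlap, the share of all genes doing so was not counted.

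**Figure D1:**
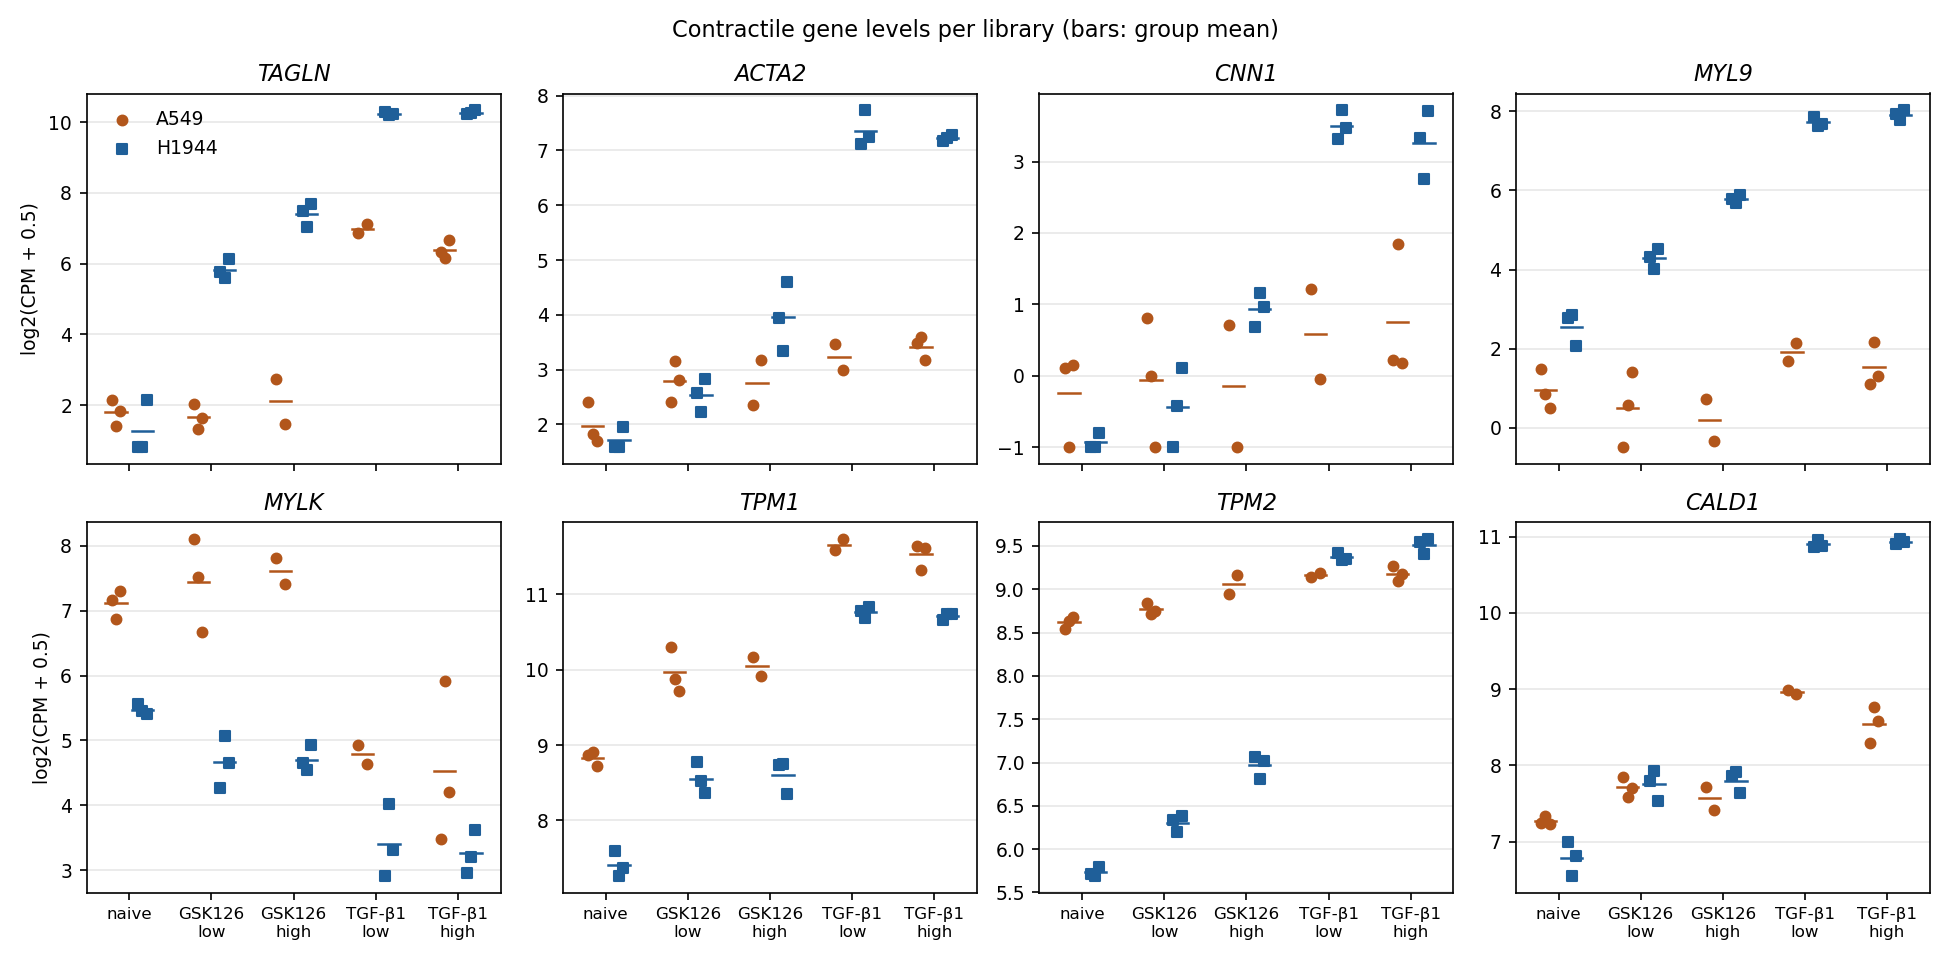
Level of each contractile gene in every library, as log2(CPM + 0.5) on axes that differ by gene, with groups along the x axis, A549 as circles, H1944 as squares and the group mean as a bar. H1944 TAGLN went from 1.25 to 3.92 CPM in naive libraries up to 1174 to 1289.9 CPM under TGF-β1, while MYLK went down in both lines under TGF-β1.

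ACTA2, smooth muscle α-actin, forms the thin filament of contractile cells (Ensembl ENSG00000107796, chromosome 10, 88935074 to 88991339, minus strand, GRCh38). In H1944 it stood at 2.52, 2.50 and 3.39 CPM in naive libraries A, B and C. In the GSK126 low gate it was at 5.42, 4.21 and 6.62 CPM and in the high gate at 14.9, 9.67 and 23.6 CPM. Every GSK126 library was above every naive library, and every high gate library was above every low gate library. Under TGF-β1 it stood at 138, 212 and 151 CPM in the low gate and 143, 149 and 156 CPM in the high gate, with overlapping gates. The log2 fold change against naive cells was 1.42 ± 0.27 (SE; edgeR adjusted p = 7.05e-05) under GSK126 and 5.71 ± 0.20 (adjusted p = 1.97e-22) under TGF-β1. Each SE of a log2 change is worked back from the F statistic of the edgeR test. The low GSK126 gate alone did not pass against naive cells (0.66 ± 0.34; adjusted p = 0.145), whereas the high gate did (2.18 ± 0.28). In A549 the levels were lower: 4.78, 3.04 and 2.74 CPM in naive cells, 4.58 to 8.55 CPM under GSK126 and 7.49 to 11.5 CPM under TGF-β1. The A549 GSK126 change did not pass by edgeR (0.86 ± 0.34; adjusted p = 0.173) and did with limma-voom (0.0449) and with all 28 libraries in 1 fit (0.0432). The A549 TGF-β1 libraries all lay above the naive ones and the change passed (1.31 ± 0.33; adjusted p = 0.00832), but not without TGF-β1 low library A (adjusted p = 0.0572) or without a filter (0.0575). ACTA2 shares exon sequence positions on the opposite strand with ACTA2-AS1 (at most 6.82 CPM in any group) and FAS (at most 19.6 CPM). Whether counting used strand is not given in the sources used here, so reads of these partners and of ACTA2 cannot be told apart.

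TAGLN, transgelin, and CNN1, calponin 1, are related actin-binding proteins of the calponin family. TAGLN (ENSG00000149591, chromosome 11, 117199321 to 117204782, plus strand) stood at 1.26, 1.25 and 3.92 CPM in naive H1944, the first 2 of these values resting on 3 counts each. It stood at 53.3, 48.0 and 69.6 CPM in the low and 178, 129.6 and 205 CPM in the high GSK126 gate. Under TGF-β1 it reached 1237, 1174 and 1209 CPM in the low and 1191, 1219 and 1289.9 CPM in the high gate. The naive, GSK126 low, GSK126 high and TGF-β1 ranges did not overlap, while the TGF-β1 gates did. The changes against naive cells were 29.02-fold under GSK126 (log2 4.86 ± 0.21; adjusted p = 2.43e-19) and 409-fold under TGF-β1 (log2 8.68 ± 0.20; adjusted p = 9.77e-28). Without naive library C, the highest of the naive ones, the log2 changes were 6.13 and 9.94, so the size of both folds rests on that library. In A549 it stood at 3.91, 2.17 and 3.05 CPM in naive cells and at 1.99 to 6.11 CPM in the 5 GSK126 libraries, ranges that overlapped (log2 0.13 ± 0.35). Under TGF-β1 it stood at 115 and 139 CPM in the low and 79.2, 71.6 and 100.3 CPM in the high gate of A549, a 31.0-fold rise (log2 4.95 ± 0.30; adjusted p = 1.57e-09). TAGLN overlaps exons of PCSK7 on the opposite strand, which stood at 49.9 CPM at most in any group.

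CNN1 (ENSG00000130176, chromosome 19, 11538717 to 11550323, plus strand) had 1 count over the 3 naive H1944 libraries. It had 0, 1 and 2 counts in the low and 5, 5 and 3 counts in the high GSK126 gate, and 15 to 32 counts in each TGF-β1 library, or 6.25 to 12.6 CPM. Pooling the counts and totals of each arm, the ratio to naive cells was 14.3 under GSK126 (95% exact counting interval 2.23 to 600.8, which covers counting error only) and 181 under TGF-β1 (32.1 to 7212). Both passed by edgeR over all genes (adjusted p = 0.0256 and 4.06e-11). The GSK126 change did not pass without GSK126 low library C (adjusted p = 0.149), naive library A (0.0505) or naive library C (0.117). Nor did it without a filter (0.0766) or with all 28 libraries in 1 fit (0.102). The low GSK126 gate alone did not pass against naive cells (1.72 ± 1.21; adjusted p = 0.302), whereas the high gate did (3.88 ± 0.94; adjusted p = 0.00117). The fitted log2 changes, 2.80 and 6.89, became 3.87 and 7.95 without naive library C, which held the only naive count, and fitted values against naive cells at 0 counts depend on the prior count. In A549 CNN1 had 0 to 14 counts per library. Its group means there, 0.137 to 0.508 CPM per kilobase of exon, lay beside olfactory background of 0.0277 to 0.13 CPM per kilobase. The part of background in that signal was not tested. The highest A549 value, 3.10 CPM, was in TGF-β1 high library B, the library richest in background.

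MYL9, the regulatory light chain of smooth muscle and non-muscle myosin, and MYLK, the kinase that phosphorylates it, moved in opposite directions in H1944. MYL9 (ENSG00000101335, chromosome 20, 36541484 to 36551447, plus strand) stood at 6.31, 6.65 and 3.69 CPM in naive cells. It stood at 19.5, 15.6 and 22.4 CPM in the low and 54.9, 50.4 and 58.7 CPM in the high GSK126 gate. Under TGF-β1 it reached 232, 196 and 205 CPM in the low and 246, 219 and 260.4 CPM in the high gate. As for TAGLN, only the TGF-β1 gates overlapped. The log2 changes against naive cells were 2.68 ± 0.18 (adjusted p = 5.59e-14) and 5.68 ± 0.16 (adjusted p = 5.64e-25). In A549 MYL9 stayed at 0.209 to 3.99 CPM over all 13 libraries, from 1 to 25 counts each. It passed against naive cells under neither agent there (−0.83 ± 0.79 under GSK126 and 0.80 ± 0.73 under TGF-β1).

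MYLK (ENSG00000065534, chromosome 3, 123610049 to 123884331, minus strand) was the member that fell. In H1944 it stood at 46.7, 43.3 and 42.1 CPM in naive cells. It stood at 18.8, 32.9 and 24.7 CPM in the low and 24.6, 22.8 and 29.8 CPM in the high GSK126 gate, and at 7.03, 15.7 and 9.40 CPM and 7.25, 8.74 and 11.8 CPM in the low and high TGF-β1 gates. The naive, GSK126 and TGF-β1 ranges did not overlap, and the gates of each agent did. The log2 change of MYLK was −0.89 ± 0.15 under GSK126 (adjusted p = 1.43e-05) and −2.11 ± 0.18 under TGF-β1 (adjusted p = 2.77e-12). In A549 its naive level was higher, 143, 117 and 157 CPM, and under TGF-β1 it stood at 30.1 and 24.5 CPM in the low and 10.7, 59.6 and 17.9 CPM in the high gate. The 59.6 CPM belongs to library B, where background was 305 CPM. Its change there was −2.51 ± 0.35 (adjusted p = 2.78e-05), −2.89 without library B, and −2.83 with both libraries above 150 CPM of background left out. Under GSK126 A549 MYLK ranged from 102 to 275 CPM, on both sides of the naive values, and did not pass (0.40 ± 0.35; adjusted p = 0.604). Antisense MYLK-AS1 overlaps its exons and stood at 3.86 CPM at most in any group.

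TPM1 and TPM2 encode tropomyosins, which lie along the actin filament and gate access of myosin. TPM1 (ENSG00000140416, chromosome 15, 63042632 to 63071915, plus strand) was the member that passed under both agents in both lines. In A549 it stood at 465, 479 and 423 CPM in naive cells, 842 to 1268 CPM under GSK126 and 2569.9 to 3411 CPM under TGF-β1, 3 ranges that did not overlap. The changes were 2.16-fold (log2 1.11 ± 0.24; adjusted p = 0.00638) and 6.10-fold (log2 2.61 ± 0.26; adjusted p = 4.40e-07). The GSK126 call was lost without high gate library A (adjusted p = 0.133) or B (0.116), without a filter (0.246) and with a filter at 1 CPM (0.0950). In H1944 TPM1 stood at 153 to 192 CPM in naive cells, 325 to 438 CPM under GSK126 (1.07 ± 0.10; adjusted p = 7.70e-11) and 1623 to 1823 CPM under TGF-β1 (3.40 ± 0.11; adjusted p = 9.69e-24). These ranges did not overlap either.

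TPM2 (ENSG00000198467, chromosome 9, 35681992 to 35690121, minus strand) stood at 52.1, 51.2 and 55.0 CPM in naive H1944. In the GSK126 gates it stood at 80.1, 72.7 and 83.1 CPM (low) and 134, 112 and 129.5 CPM (high), and under TGF-β1 at 648 to 765 CPM. It rose by 0.78 ± 0.09 (adjusted p = 2.49e-08) and 3.78 ± 0.10 (adjusted p = 4.27e-26) on the log2 scale. In A549, where its naive level was already 373 to 410.1 CPM, it stood at 420.2 to 575 CPM under GSK126 and 545 to 616 CPM under TGF-β1. Neither A549 change passed (0.21 ± 0.21 and 0.38 ± 0.21; adjusted p = 0.658 and 0.268), although no treated library overlapped the naive ones. The TGF-β1 change passed under 6 alternatives, among them RLE size factors (adjusted p = 0.0329), limma-voom (0.0224) and DESeq2 (0.000989). CALD1 (ENSG00000122786, chromosome 7, 134744252 to 134970728, plus strand), caldesmon, inhibits actomyosin on the thin filament. In H1944 it stood at 93.2 to 127 CPM in naive cells, 185 to 243 CPM under GSK126 (0.88 ± 0.09; adjusted p = 2.32e-09) and 1868 to 2006 CPM under TGF-β1 (4.19 ± 0.11; adjusted p = 1.51e-26). In A549 it stood at 150.02 to 161 CPM in naive cells and 171 to 230.4 CPM under GSK126, which did not pass (0.29 ± 0.19; adjusted p = 0.477). It rose to 313 to 506 CPM under TGF-β1 (1.30 ± 0.20; adjusted p = 9.13e-05).

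In counts of members, GSK126 raised 7 and lowered 1 of 8 in H1944, where 40.2% of all tested genes passed (21.5% higher and 18.7% lower), and raised 1 and lowered 0 of 7 in A549, where 6.77% passed (3.57% higher and 3.20% lower). TGF-β1 raised 7 and lowered 1 of 8 in H1944, where 63.7% of all genes passed (32.1% higher and 31.6% lower), and raised 4 and lowered 1 of 7 in A549, where 19.0% passed (7.67% higher and 11.4% lower). The median log2 change of the members tested was 4.94 under TGF-β1 and 1.25 under GSK126 in H1944, beside all-gene medians of −0.01 and 0.00. In A549 it was 1.30 and 0.29, beside 0.05 and −0.16. Both agents were compared with the same 3 naive libraries of a line, so these counts are not independent of each other. CNN1 entered the H1944 counts through its TGF-β1 libraries, where it was high.

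**Figure D2:**
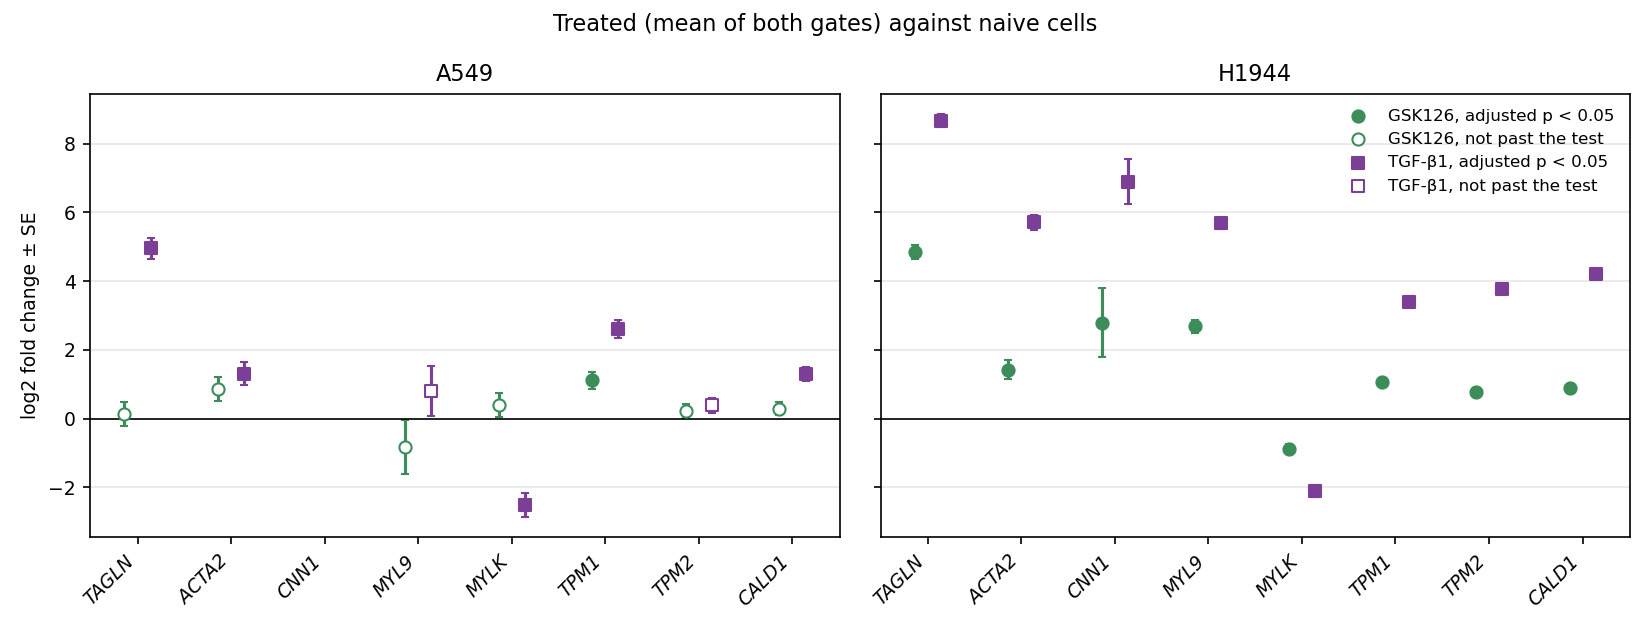
Log2 fold change of each member, treated (mean of both gates) against naive cells, in A549 and H1944; bars are SE, filled symbols passed the test at an adjusted p of 0.05, and CNN1 was not tested in A549. TAGLN changed most in H1944 under TGF-β1 (8.68), and MYLK lies under 0 in H1944 under both agents and in A549 under TGF-β1.

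The direct comparison of sorted cells, TGF-β1 against GSK126, needs no naive libraries. In H1944 all 8 members differed: 7 were higher under TGF-β1, from 2.33 ± 0.08 for TPM1 to 4.29 ± 0.14 for ACTA2 on the log2 scale, and MYLK was lower (−1.22 ± 0.17). There 63.8% of all genes passed (31.6% higher and 32.1% lower). CNN1 was kept in this fit through the H1944 TGF-β1 libraries, where it was high. In A549 TAGLN (4.83 ± 0.27), TPM1 (1.498 ± 0.21) and CALD1 (1.01 ± 0.17) were higher under TGF-β1 and MYLK was lower (−2.91 ± 0.33), 4 of 7 members beside 19.3% of all genes (7.93% higher and 11.4% lower). ACTA2 (0.45 ± 0.29), MYL9 (1.63 ± 0.71) and TPM2 (0.17 ± 0.18) did not pass. MYL9 did with DESeq2 (adjusted p = 0.0476), limma-voom (0.0226), all 28 libraries in 1 fit (0.00136) and a background covariate (0.0448), and TPM2 with the background-rich libraries left out (0.0283).

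The comparison of the gates asked whether members followed the mesenchymal reporter within a treatment. In H1944 under GSK126, 4 of 8 members were higher in the high gate and 0 lower, beside 6.93% of all genes that passed (3.62% higher and 3.31% lower). TAGLN was 3.01-fold higher (log2 1.59 ± 0.14; adjusted p = 2.15e-09), MYL9 2.88-fold (1.52 ± 0.15; adjusted p = 2.96e-08), ACTA2 2.88-fold (1.53 ± 0.28; adjusted p = 0.000571) and TPM2 1.60-fold (0.68 ± 0.10; adjusted p = 4.95e-05). Their gates did not overlap, a trait whose share over all genes was not counted. The TPM2 call was lost when all 28 libraries shared 1 fit (0.63; adjusted p = 0.0902). CNN1, at 3 counts in the low and 13 in the high gate, also had gates that did not overlap, but did not pass (2.16 ± 0.82; adjusted p = 0.109). MYLK (−0.01 ± 0.19), TPM1 (0.07 ± 0.11) and CALD1 (0.05 ± 0.10) had overlapping gates, with 95% intervals of −0.44 to 0.42, −0.17 to 0.30 and −0.18 to 0.28. TPM1 and CALD1 were above naive cells in the low gate alone (1.04 ± 0.11 and 0.85 ± 0.11) as in the high gate alone (1.10 ± 0.11 and 0.90 ± 0.11), and MYLK was below them in both (−0.88 ± 0.18 and −0.89 ± 0.18).

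In H1944 under TGF-β1, 0 of 8 members passed between the gates, with 0 at an unadjusted p under 0.05 and 0 by DESeq2 and limma-voom. Of all genes 0.0587% passed (0.0147% higher and 0.0440% lower). All 8 members had overlapping gates, and the share of all genes with overlapping gates was not counted. The log2 differences ran from −0.16 ± 0.37 for CNN1 to 0.21 ± 0.11 for MYL9. For TAGLN the difference was 0.05 ± 0.12, with a 95% interval of −0.22 to 0.32, and for ACTA2 −0.12 ± 0.14 (−0.43 to 0.19).

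The difference between the 2 gate effects was itself tested in H1944. It passed for TAGLN (−1.54 ± 0.19; adjusted p = 8.45e-06), MYL9 (−1.32 ± 0.19; adjusted p = 0.000185) and ACTA2 (−1.64 ± 0.31; adjusted p = 0.00552), 3 of 8 members beside 0.404% of all genes (0.0661% higher and 0.338% lower, or 9 and 46 genes, which became 15 and 41 with RLE size factors). A negative value means a smaller gate effect under TGF-β1. The ACTA2 value did not pass without GSK126 low library B (−1.45; adjusted p = 0.0690). None of the 3 passed when all 28 libraries shared 1 estimate of the spread (adjusted p = 0.123, 0.291 and 0.201). TPM2 did not pass by edgeR (−0.52 ± 0.14; adjusted p = 0.0809) and did by DESeq2 (adjusted p = 0.0141), by limma-voom (0.0130) and without GSK126 high library B (0.0298). CNN1 (−2.32 ± 0.90; adjusted p = 0.295), MYLK (−0.06 ± 0.35), TPM1 (−0.10 ± 0.15) and CALD1 (0.00 ± 0.14) did not pass. The reporter transcript itself stood at 808 to 906 CPM in the GSK126 high gate and 769 to 831 CPM in the TGF-β1 low gate of H1944, ranges that overlapped. TAGLN stood at 129.6 to 205 CPM and 1174 to 1237 CPM in those same libraries.

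In A549 no member passed between the gates, under GSK126 (0 of 7, beside 0% of all genes) or under TGF-β1 (0 of 7, beside 0%), and the count was 0 under every alternative tried, DESeq2 and limma-voom included. At an unadjusted p under 0.05 there were 0 members under GSK126 and 1 under TGF-β1, which was TAGLN. TAGLN stood lower in the TGF-β1 high gate than in the low gate (79.2, 71.6 and 100.3 against 115 and 139 CPM; −0.57 ± 0.27), and so did CALD1 (313 to 435 against 488 and 506 CPM; −0.41 ± 0.24), with gates that did not overlap. TPM2 gates did not overlap under GSK126, at 420.2 to 457 CPM in the low and 494 and 575 CPM in the high gate (0.48 ± 0.26). With 3 libraries in a gate and 2 in the other, separate gates alone say little, and their share over all genes was not counted. For TAGLN under GSK126 the 95% interval, −0.48 to 1.77, includes the value found in H1944. Libraries of a group varied more in A549, with a biological coefficient of variation of 0.358 against 0.0978 in H1944. The difference between A549 gate effects was passed by 0 of 7 members, with 1 at an unadjusted p under 0.05 (TAGLN, −1.22 ± 0.56), and by 0% of all genes.

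**Figure D3:**
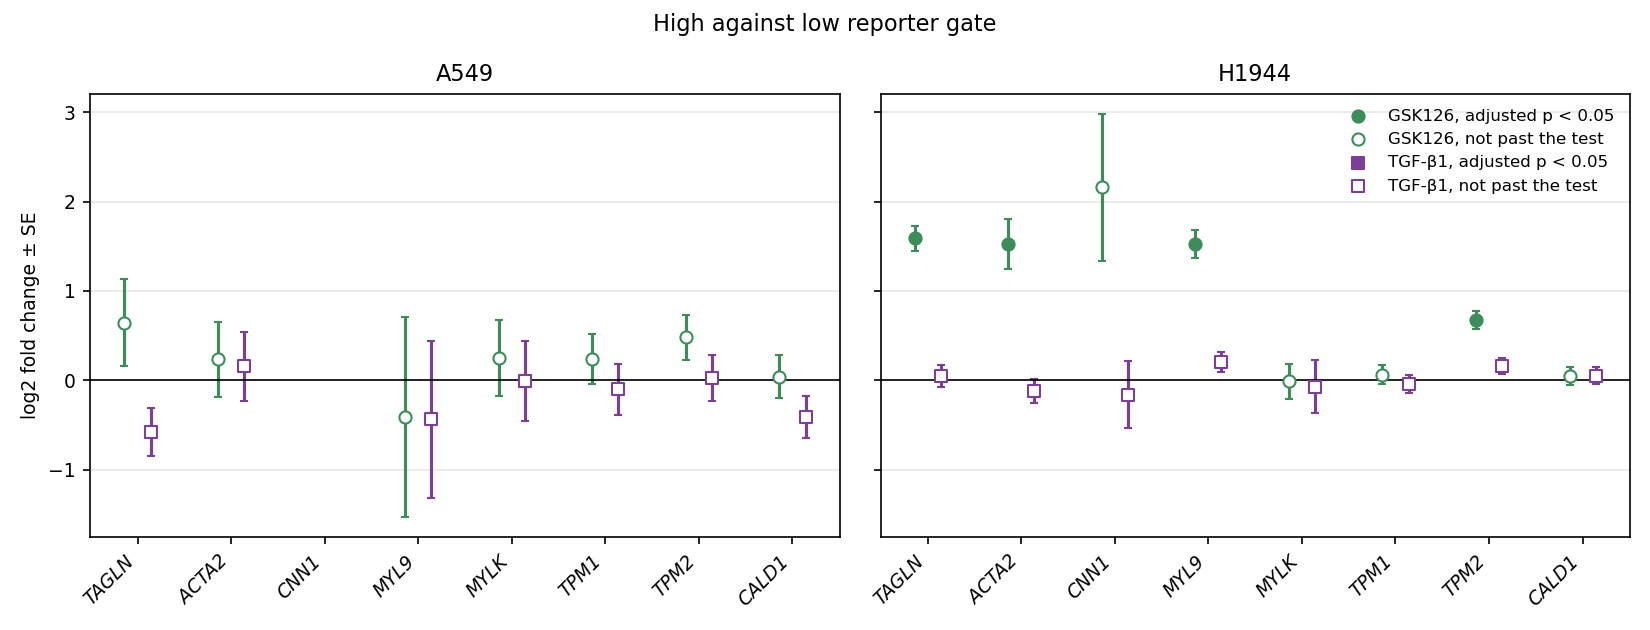
Log2 fold change of each member between the high and low reporter gates under each agent, in A549 and H1944; bars are SE, filled symbols passed the test at an adjusted p of 0.05, and CNN1 was not tested in A549. TAGLN, ACTA2, MYL9 and TPM2 stand above 0 and passed in H1944 under GSK126, and no symbol is filled elsewhere.

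Whether the lines differed in their response was tested in a fit of all 28 libraries. Under TGF-β1 the effect was larger in H1944 for 7 of 8 members, beside 20.0% of all genes that differed (10.5% higher and 9.48% lower): CNN1 (5.43 ± 1.45), MYL9 (4.72 ± 0.48), ACTA2 (4.31 ± 0.37), TAGLN (3.68 ± 0.40), TPM2 (3.24 ± 0.20), CALD1 (2.73 ± 0.19) and TPM1 (0.64 ± 0.23; adjusted p = 0.0445). Without H1944 naive library C the TAGLN value was 4.88 and that of CNN1 6.79, and without A549 TGF-β1 low library A that of CNN1 was 6.06. CNN1 was kept in this fit through the H1944 TGF-β1 libraries, where it was high, and was too low to be tested in A549 alone. The MYLK effect did not differ past the test (0.22 ± 0.44, 95% interval −0.69 to 1.14). The TPM1 call was lost without a filter (adjusted p = 0.0562) and with a filter at 1 CPM (0.0782). It was also lost, with adjusted p from 0.0511 to 0.127, on leaving out any of 10 libraries: A549 GSK126 low B, TGF-β1 low A and naive B, and H1944 TGF-β1 low A and C, TGF-β1 high A, B and C, and naive B and C.

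Under GSK126 the effect was larger in H1944 for TAGLN (4.81 ± 0.45; adjusted p = 5.07e-09) and MYL9 (3.61 ± 0.57; adjusted p = 3.37e-05) and lower for MYLK (−1.32 ± 0.39; adjusted p = 0.0258), 3 of 8 members beside 9.91% of all genes (6.18% higher and 3.73% lower). Without H1944 naive library C the TAGLN value was 6.003, and without A549 GSK126 high library A that of MYL9 was 4.22. The TPM1 effects differed by −0.06 ± 0.23 (95% interval −0.54 to 0.42), which did not pass, and ACTA2 (0.61 ± 0.39) and CNN1 (2.41 ± 1.52) did not pass. The MYLK call was lost with DESeq2 (adjusted p = 0.0895), with the replicate letter as a block (adjusted p = 0.0644) and without any of A549 GSK126 low A, GSK126 high A, naive B, H1944 GSK126 low C and naive A, B and C (adjusted p from 0.0503 to 0.0709). TPM2 (0.54 ± 0.19; adjusted p = 0.0705) and CALD1 (0.56 ± 0.19; adjusted p = 0.0543) passed with RLE size factors, DESeq2, limma-voom, the background-rich libraries left out and a background covariate. TPM2 also passed without any of A549 GSK126 low A and C, GSK126 high B, TGF-β1 low A, TGF-β1 high B and naive A, and H1944 GSK126 low B and C (adjusted p from 0.0179 to 0.0490). CALD1 did so without any of A549 GSK126 low A and C, GSK126 high A, TGF-β1 low A, TGF-β1 high B and C and naive A, and H1944 GSK126 low C, GSK126 high C and naive A (adjusted p from 0.0122 to 0.0476). The gate effects did not differ between the lines for any member, under GSK126 (0 of 8, with ACTA2 at an unadjusted p of 0.0161, beside 0.0112% of all genes) or under TGF-β1 (0 of 8, with 0 at an unadjusted p under 0.05, beside 0.00558%). For TAGLN under GSK126 that difference was 0.90 ± 0.54.

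To set the members beside each other, CPM was divided by the kilobases of annotated exon, the union over all transcripts of a gene. That union held 22167 bases for MYLK, 12876 for TPM1 and 9843 for CALD1, but 3248 for TPM2 and 2821 for MYL9. Gene counts do not say which transcripts were used, so the order of members depends on these lengths. By CPM alone TPM1 (1678) stood above TPM2 (730) in the H1944 TGF-β1 high gate. In naive cells of both lines the tropomyosins came highest, TPM2 at 121 and TPM1 at 35.4 CPM per kilobase in A549 and 16.2 and 13.2 in H1944, followed by CALD1 at 15.7 and 11.2. TAGLN was near the bottom, at 0.777 and 0.547 CPM per kilobase. In the H1944 TGF-β1 high gate TAGLN came highest at 315, before TPM2 (225), CALD1 (199), TPM1 (130.3), MYL9 (85.7), ACTA2 (50.2), CNN1 (3.27) and MYLK (0.418). In the A549 TGF-β1 high gate TPM1 (231) and TPM2 (179) stayed above CALD1 (38.3) and TAGLN (21.4). MYL9 in A549, at 0.254 to 1.18 CPM per kilobase, lay nearer to background than any other member but CNN1. The summed level of all 8 was 388 ± 38.3 CPM (SD, n = 3) in naive H1944 and 6007 ± 133 CPM (n = 3) in its TGF-β1 high gate, and 1150.4 ± 8.33 CPM (n = 3) in naive A549 and 4064 ± 315 CPM (n = 3) in its TGF-β1 high gate.

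**Figure D4:**
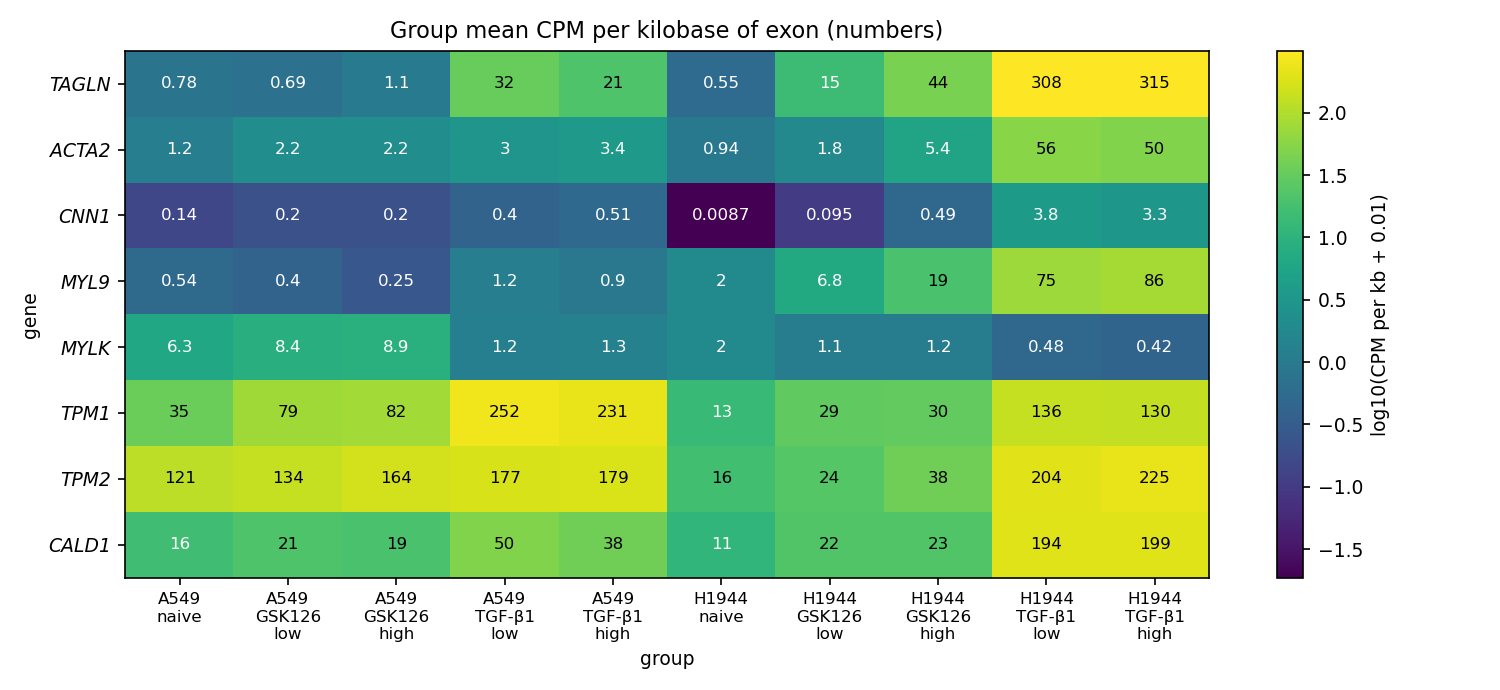
Group mean level of each member in CPM per kilobase of annotated exon (numbers), coloured by log10(CPM per kilobase + 0.01), with genes as rows and the 10 groups as columns. TAGLN goes from 0.547 in naive H1944 to 315 in its TGF-β1 high gate, while MYLK goes from 1.99 to 0.418.

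Over the 10 group means, on the scale of log2(CPM + 0.5) centred within each line, MYLK correlated negatively with each of the other 7 members (Pearson r from −0.90 with TAGLN to −0.61 with TPM2). The others correlated positively with each other, from 0.80 for TAGLN and TPM2 to 0.995 for ACTA2 and CNN1. The points share lines, libraries and naive controls, so these are descriptions. Of 11222 other genes annotated as protein-coding with a mean of at least 5 CPM over the groups, those closest to its mean profile were MRC2 (r = 0.992), an endocytic collagen receptor, CFL1 (0.992), the actin-severing protein cofilin, ZNF362 (0.990), ACTN1 (0.989), the actin crosslinker α-actinin, and MIR1915HG (0.989).

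Regulators and neighbours of the contractile program were read from lists that hold none of the 8 genes and share some genes with each other. These lists too were chosen with earlier results of these data known. Beside their counts stand the shares of all genes tested that passed. Of 23 SRF cofactors and regulators, 12 rose and 4 fell under GSK126 and 15 rose and 5 fell under TGF-β1 in H1944, beside 40.2% and 63.7% of all genes. CSRP1, a LIM protein of the actin cytoskeleton, rose under both (2.57 ± 0.11 and 3.96 ± 0.12), as did SMAD7, a feedback inhibitor of TGF-β signalling (2.50 ± 0.15 and 4.41 ± 0.14). MYOCD, the gene of myocardin, fell under GSK126 from 36.7 ± 2.93 CPM (SD, n = 3) in naive cells to 11.0 ± 0.836 CPM in the low and 7.15 ± 2.05 CPM in the high gate (−2.22 ± 0.15; adjusted p = 3.79e-14). Of the same 23 in A549, GSK126 raised 6 and lowered 1 and TGF-β1 raised 5 and lowered 2, beside 6.77% and 19.0% of all genes, among them SMAD7 (2.23 ± 0.23 and 3.24 ± 0.23) and NOTCH3, a Notch receptor of vascular smooth muscle, which fell under both (−1.14 ± 0.28 and −4.81 ± 0.31).

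Of 30 SRF and MRTF target genes, 29 were tested in H1944. There 22 rose and 1 fell under GSK126, with a median of 0.89, and 26 rose and 2 fell under TGF-β1, with a median of 2.43, beside 40.2% and 63.7% of all genes. CCN1 (3.13 ± 0.12 and 5.25 ± 0.12) and CCN2 (2.66 ± 0.13 and 6.41 ± 0.13), matricellular proteins, were among those of smallest p. In A549 GSK126 raised 10 of 30 and lowered 0 (median 0.56), and TGF-β1 raised 14 and lowered 1 (median 1.00), beside 6.77% and 19.0% of all genes. Between the H1944 GSK126 gates 14 of 29 were higher in the high gate and 0 lower, with a median of 0.32, beside 3.62% of all genes higher and 3.31% lower. KRT17, a keratin (1.197 ± 0.10), and FLNA, the actin crosslinker filamin A (0.69 ± 0.09), had the smallest adjusted p. The gate effect was smaller under TGF-β1 for 3 of the 29, beside 0.338% of all genes: KRT17 (−1.01 ± 0.14), FLNA (−0.70 ± 0.12) and FHL2, a LIM-only cofactor (−0.84 ± 0.19).

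Other smooth muscle cytoskeleton genes numbered 28, of which 19 were tested in H1944: 12 rose and 1 fell under GSK126, and 18 rose and 0 fell under TGF-β1, beside 40.2% and 63.7% of all genes. ACTN1 (1.197 ± 0.09 and 3.59 ± 0.10) and PDLIM7 (1.59 ± 0.11 and 3.30 ± 0.11), a LIM-domain protein of actin fibres, were examples. Between the GSK126 gates 5 of 19 were higher in the high gate, beside 3.62% of all genes, among them PDLIM7 (0.85 ± 0.11) and ACTN1 (0.59 ± 0.09). In A549 4 of 25 rose and 1 fell under either agent, beside 6.77% and 19.0% of all genes, PDLIM7 (1.42 ± 0.22 and 2.59 ± 0.23) and SMTN, smoothelin (1.46 ± 0.27 and 2.63 ± 0.27), among those that rose.

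Of 34 non-muscle actomyosin genes and their regulators in H1944, 15 rose and 4 fell under GSK126 (median 0.16), and 27 rose and 4 fell under TGF-β1 (median 0.76), beside 40.2% and 63.7% of all genes, of which 18.7% and 31.6% were lower. MYH9, the heavy chain of non-muscle myosin IIA, rose (1.19 ± 0.08 and 2.79 ± 0.08), and MYH14, that of myosin IIC, fell under TGF-β1 (−2.00 ± 0.08). GSK126 raised 4 and lowered 0 of them in A549, and TGF-β1 raised 5 and lowered 4, beside 6.77% and 19.0% of all genes. LIMK2, a kinase of cofilin, was among the risers under TGF-β1 (1.47 ± 0.26).

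The 10 markers of differentiated smooth muscle, which include SMTN and MYOCD, summed to 145.1 to 155.5 CPM per library in naive H1944, 103.7 to 133.5 CPM under GSK126 and 167 to 201.6 CPM under TGF-β1. In A549 they summed to 35.6 to 88.3 CPM in naive cells, 50.5 to 78.8 CPM under GSK126 and 92.0 to 188.6 CPM under TGF-β1. Of the 6 tested in H1944, 2 rose and 2 fell under GSK126 and 4 rose and 2 fell under TGF-β1 (median 2.14). There 40.2% and 63.7% of all genes passed. Under TGF-β1, SYNPO2 (4.54 ± 0.18) was among those that rose and NPNT (−4.85 ± 0.16) among those that fell. Of the 8 tested in A549, GSK126 raised 1 and lowered 1 and TGF-β1 raised 1 and lowered 2. In A549 6.77% and 19.0% of all genes passed. Group means of MYH11, the smooth muscle myosin heavy chain, were at most 7.53 CPM, of LMOD1 4.74 CPM, of ACTG2 4.44 CPM and of DES 1.25 CPM. These 4 were picked after their values were seen and do not stand for the whole list. Of the 10 markers, 8 had a group mean of at least 1 CPM in naive A549 and 10 in both its TGF-β1 gates. In H1944, 5 did in naive cells, 6 in the TGF-β1 low gate and 7 in the high gate. The part of these markers in the members' changes was not tested. Epithelial keratins were abundant in naive cells of both lines, KRT8 at 6284 ± 338 CPM in A549 and 3015 ± 219 CPM in H1944 (SD, n = 3), while the lung lineage markers NKX2-1, SFTPC and SFTPA1 were under 1 CPM in both. The 12 epithelial genes summed to 5026 to 5663 CPM per library in naive H1944 and 12200 to 12800 CPM in naive A549. Under TGF-β1 they summed to 1511 to 1750 CPM in H1944 and 5022 to 7390 CPM in A549. In the GSK126 low and high gates they summed to 5037 to 6068 and 5497 to 7780 CPM in H1944. In those gates of A549 they summed to 8047 to 8405 and 8253 to 10780 CPM. Fibroblast markers moved with the members in H1944. The 12 genes summed to 14.4 to 17.7 CPM in naive cells, with PDPN at 0 counts, to 54.7 to 62.8 and 81.5 to 127 CPM in the GSK126 low and high gates, and to 3482 to 3988 and 3958 to 4565 CPM in the TGF-β1 gates. Of the 8 tested there, 7 rose and 1 fell under TGF-β1, beside 63.7% of all genes that passed. In A549 the 12 fibroblast genes summed to 368 to 518 CPM in naive cells and 521 to 809 CPM under TGF-β1. They summed to 264 to 388 and 322 to 439 CPM in the A549 GSK126 low and high gates. The part of fibroblast-like gene expression in the members' changes was not tested. Leukocyte markers summed to at most 13 CPM in any H1944 library, with TYROBP at 0 counts in its naive libraries, and to at most 28.15 CPM in A549. Endothelial markers summed to at most 24.55 CPM in H1944 and 68.5 CPM in A549, and striated muscle markers to at most 127.1 and 267.1 CPM. All 3 A549 maxima were in the TGF-β1 high gate, which holds the library richest in background. The part of background in the marker sums was not tested.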

How the data were processed

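RNA of 28 libraries was read from a deposited table of integer counts per gene, with 60487 rows. Per the submitters' processing notes, the authors used bcl2fastq 2.20.0, STAR 2.6.0c, HTSeq 0.12.3 and GRCh38; whether counting used strand is not given in the sources used here. The kit was a stranded low-input total RNA kit, per the labels. The 8 members, the gene lists and the comparisons were chosen with earlier results of these data known. Symbols were found for 56321 of 60483 Ensembl rows, and all 171 listed genes matched. Coordinates came from GENCODE 29.

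The test was edgeR 4.0.16 (R 4.3.3) on the deposited counts: its default filter, TMM scaling, quasi-likelihood F tests, and Benjamini-Hochberg adjustment at 0.05 over all 19842 genes kept in A549, 13621 in H1944 or 17918 in the joint fit. Each line's 5 groups were the model, and a treatment effect is the average of its gates minus naive. The mVenus row stayed in the fits but was left out of counts. The SE of a log2 change is its size divided by the square root of the F statistic, and is not an SE given by the fit. Intervals of log2 changes are 95% on the fit's residual degrees of freedom (8, 10 and 18). The F tests also borrow degrees of freedom across genes, so an interval can include no change where the unadjusted p is under 0.05. CPM used total counts, and reads have no molecular identifiers. Besides the members, the text names up to 4 genes of smallest adjusted p per list and comparison, and the 5 genes closest in pattern; MYH11, DES, LMOD1, ACTG2, PDPN, TYROBP, KRT8, NKX2-1, SFTPC and SFTPA1 were picked after their values were seen, to show marker levels. Same-letter gates of H1944 deviated together under GSK126 (r = 0.142, 0.216 and 0.169) and less so under TGF-β1 (0.056, 0.123 and −0.049). In A549 the values were 0.165 and 0.074 under GSK126 and 0.114 and 0.430 under TGF-β1. The labels do not say whether same letters share a culture, and the main fits did not pair them. Letters entered only in the replicate block, an alternative, over all groups of a line. The alternatives were RLE size factors, other filters, DESeq2 1.42.0, limma-voom 3.58.1, a replicate block, other sets of groups, each gate alone and each library left out; leaving out A549 libraries above 150 CPM of background, or a background covariate, was added after seeing the data. The test was tried on simulated data.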

Additional observations from a re-analysis of the deposited data

Results flagged for a closer look

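The following members differed between treatments or lines by a test of the difference itself, with values on the log2 scale from edgeR and p-values adjusted over all genes. In H1944 the effect of the reporter gate was smaller under TGF-β1 than under GSK126 for TAGLN (−1.54 ± 0.19, SE; adjusted p = 8.45e-06), ACTA2 (−1.64 ± 0.31; adjusted p = 0.00552) and MYL9 (−1.32 ± 0.19; adjusted p = 0.000185). For each of these 3 genes, all 3 high gate libraries were above all 3 low gate libraries under GSK126, and the gates overlapped under TGF-β1. These are the libraries that gave the test, so this adds no separate evidence, and the share of all genes with such gates was not counted. Of all genes 0.404% passed this test. None of the 3 passed with all 28 libraries in 1 fit (adjusted p = 0.123, 0.201 and 0.291).

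The GSK126 effect was larger in H1944 than in A549 for TAGLN (4.81 ± 0.45; adjusted p = 5.07e-09) and MYL9 (3.61 ± 0.57; adjusted p = 3.37e-05) and lower for MYLK (−1.32 ± 0.39; adjusted p = 0.0258). Of all genes 9.91% passed, and MYLK passed under 27 of 36 alternatives. The TGF-β1 effect was larger in H1944 for CNN1 (5.43 ± 1.45; adjusted p = 0.00656), MYL9 (4.72 ± 0.48; adjusted p = 9.11e-09), ACTA2 (4.31 ± 0.37; adjusted p = 2.02e-10), TAGLN (3.68 ± 0.40; adjusted p = 2.85e-08), TPM2 (3.24 ± 0.20; adjusted p = 1.32e-13), CALD1 (2.73 ± 0.19; adjusted p = 3.67e-12) and TPM1 (0.64 ± 0.23; adjusted p = 0.0445). Of all genes 20.0% passed, and TPM1 passed under 24 of 36 alternatives. CNN1 was kept in this fit through the H1944 TGF-β1 libraries, where it was high, and was too low to be tested in A549 alone.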

How the results depend on the processing

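Of 122 log2 changes of members, 51 passed. Over their 1346 alternative values 0 changed sign, and 39 values, of 10 results, missed the threshold. Of those that had not passed, 7 results passed under some alternative. Among results that had not passed, TPM2 in A549 under GSK126 was at −0.029 for the low gate alone, and the A549 TAGLN gate difference under GSK126 ran from −0.13 (without high gate library A) to 1.24 on leaving out libraries. The count of members past the test in A549 under GSK126 was 1, and became 0 without a filter and with a filter at 1 CPM, 2 with limma-voom and with all libraries in 1 fit, and 0 to 1 on leaving out libraries. The count for the H1944 difference between gate effects was 3, and became 0 with all libraries in 1 fit; the cause was not tested for any of these. The count for the GSK126 effect between lines was 3, and became 5 with RLE size factors, limma-voom, the background covariate or the background-rich libraries left out, and 2 to 5 on leaving out libraries, 5 without A549 GSK126 low C, TGF-β1 low A, TGF-β1 high B or naive A. RLE scaling moved the all-gene median of the A549 difference between gate effects from 0.04 to 0.17 and that of the GSK126 gate effect between lines from −0.06 to 0.07; members did not pass in either. Over all genes, calls in A549 went from 1344 under GSK126 to 852 (low gate alone) and 3396 (limma-voom), from 3775 under TGF-β1 to 2383 and 7921 in the same settings, from 3838 between agents to 6054 (limma-voom), and between gates from 0 to 18 under GSK126 (compared groups only), 1393 under TGF-β1 (limma-voom) and 6 for their difference (no filter). In H1944 they went from 5475 under GSK126 to 3491, and between gates from 944 to 53 under GSK126, from 8 to 0 under TGF-β1 and from 55 to 2 for their difference, all with all libraries in 1 fit, and to at most 26 (compared groups only) and 152 (limma-voom) for the last pair. Between lines they went with limma-voom from 1775 to 2883 under GSK126, from 3588 to 6126 under TGF-β1 and from 1 to 77 for the TGF-β1 gates, and without a filter from 2 to 63 for the GSK126 gates. The replicate block (paired letters) left 4 members between the H1944 GSK126 gates and 3 in the difference between gate effects, and changed no call but MYLK between lines. Depth limits CNN1 in both lines and MYL9 in A549, where libraries held 0 to 32 counts.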
